A study of Mus musculus with 9 samples.

Results

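Transcript levels of 7 subunits of the GABA-A receptor, Gabra2, Gabra3, Gabra4, Gabra5, Gabra6, Gabrb2 and Gabrd, were examined in tumours of mice, for which the labels give MB as the tissue. The genes were picked by symbol, and all 7 are among the 17482 genes of the deposited expression table. RNA was measured by bulk sequencing in 9 libraries, 3 in each of 3 groups, from mice at postnatal day 8 or 9. YSGr (n = 3) is the rescued and YSGnr (n = 3) the non-rescued class of fYap1;fSMO-M2;hGFAPcre tumours. SG (n = 3) is fSMO-M2;hGFAPcre, without the floxed Yap1 allele. All 3 groups therefore share SMO-M2, a constitutively active Smoothened that drives Hedgehog signalling, switched on by Cre under the hGFAP promoter, which is active in neural progenitors and glia. The labels do not define rescue, the zygosity of the floxed allele or the sex of the animals. Nothing in them ties libraries to separate animals either, so a p-value here speaks of the spread among libraries, some of which may be technical.

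GABA-A receptors are chloride channels opened by the inhibitory transmitter GABA and built from 5 subunits, usually alpha and beta subunits with a gamma or a delta subunit. In the cerebellum, granule neuron precursors divide under Hedgehog signalling and then mature into granule neurons. Receptors with alpha2 and alpha3 are typical of younger neurons, and maturing granule neurons switch on alpha6 and delta. Receptors of alpha6 with delta lie outside synapses and carry the tonic inhibition of granule neurons.

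The genes lie in 4 clusters and at 1 site apart, in coordinates of GRCm38. Gabra6 (ENSMUSG00000020428.13, chromosome 11, 42306437 to 42321072, minus strand) and Gabrb2 (ENSMUSG00000007653.12, chromosome 11, 42419757 to 42629028, plus strand) sit in a cluster on chromosome 11. Gabra2 (ENSMUSG00000000560.9, chromosome 5, 70957597 to 71095849, minus strand) and Gabra4 (ENSMUSG00000029211.11, chromosome 5, 71569749 to 71658308, minus strand) sit with Gabrg1 and Gabrb1. Gabra5 (ENSMUSG00000055078.7, chromosome 7, 57407672 to 57510059, minus strand) sits near Gabrg3, and Gabra3 (ENSMUSG00000031343.13, chromosome X, 72432681 to 72656848, minus strand) with Gabre and Gabrq. Gabrd (ENSMUSG00000029054.8, chromosome 4, 155384980 to 155398112, minus strand) is outside these clusters.

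The promoters of Gabra6 and Gabra2 are shown because these alpha subunits mark the opposite ends of the results, Gabra6 being high in both Yap1-floxed groups and Gabra2 low in YSGnr. The difference of Gabra2 between YSGnr and SG was not called with all libraries (adjusted p = 0.0655 with limma). Each run is the 250 bases before the annotated start, from RefSeq on GRCm38.p6, read 5′ to 3′ on the minus strand. Capitals mark TTGGC or its reverse complement GCCAA, the half-site of the nuclear factor one proteins, which are known to act on Gabra6 in granule neurons.
Gabra6 (chr11:42321073-42321322): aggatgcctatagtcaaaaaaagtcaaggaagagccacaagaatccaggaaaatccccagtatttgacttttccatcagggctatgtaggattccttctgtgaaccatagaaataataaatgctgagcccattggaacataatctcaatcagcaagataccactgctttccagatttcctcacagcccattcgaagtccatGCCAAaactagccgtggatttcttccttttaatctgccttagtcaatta
Gabra2 (chr5:71095850-71096099): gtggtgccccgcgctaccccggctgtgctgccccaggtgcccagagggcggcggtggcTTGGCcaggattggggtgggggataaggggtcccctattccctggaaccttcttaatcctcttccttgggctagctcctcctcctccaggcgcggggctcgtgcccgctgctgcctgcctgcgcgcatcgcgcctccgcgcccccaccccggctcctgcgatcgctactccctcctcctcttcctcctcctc
Each window holds 1 half-site, as 41.5% of 32851 promoter windows of this length do, on either strand. In Gabra6 it lies on the opposite strand, 49 to 45 bases before the start, and in Gabra2 on the gene's strand, 192 to 188 bases before the start. The full palindrome, TTGGC followed after 5 bases by GCCAA (in 0.0365% of windows), the TEAD motif GGAATG (12.6%), the E-boxes CAGATG (14.4%) and CAGCTG (13%), and the GLI motif GACCACCCA (0.225%) were searched on both strands and found in neither window. The windows differ in base composition, with 40.8% GC for Gabra6 and 70% GC for Gabra2. Windows of other members were searched too. There the half-site was found for Gabra4 and Gabrb2, the TEAD motif for Gabrb2 and Gabra3, and the E-box CAGATG for Gabra5. Of the 4 nuclear factor one genes 0 were called by limma in YSGr or YSGnr against SG or in YSGr against YSGnr. At an unadjusted p below 0.05 there were 1, 2 and 1, beside 3987, 3909 and 5170 of all 15251 tested genes. Nfia differed by -0.69 log2 units in YSGr from SG (adjusted p = 0.0632 with limma).

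YSGnr replicate 1 was the shallowest library, with an effective size, after library scaling, of 3.92 M (mega) reads, against 18.1 to 32.3 M in the rest. Its summed reads were 9.66 M, of which 63.4% came from Yam1 and Lars2 (1.98% to 8.15% elsewhere). Yap1 fell in YSGr (mean 3.51 ± 0.84 log2 CPM) and in YSGnr (2.45 ± 0.41), against 5.06 ± 0.05 in SG (SD, n = 3 each; adjusted p = 0.0327 and 0.0131). The granule lineage factor Zic1 was at 9.66 log2 CPM or more in every library. YSGr replicate 3 stood apart from its group: the Hedgehog target Gli1 was at 7.57 log2 CPM there, against 5.12 and 5.01 in YSGr replicates 1 and 2 and 7.30 to 7.75 in the YSGnr and SG libraries. In every YSGr library and in YSGnr replicate 1, Xist was at 9.81 log2 CPM or more while the Y-linked Ddx3y and Kdm5d were at the table's floor, and the other 5 libraries showed the reverse. YSGr and SG therefore also differ in these sex-linked genes, and that difference cannot be told apart from the genotype.

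Gabra6 and Gabrd rose in both Yap1-floxed groups, and more in YSGr than in YSGnr. Gabra6 encodes alpha6, an alpha subunit found almost only in granule neurons. Its level was 5.86, 6.23 and 5.36 log2 CPM (read counts scaled to library size, on a log2 scale) in YSGr, 4.61, 3.92 and 4.16 in YSGnr, and 2.53, 2.77 and 2.96 in SG. The 3 groups did not overlap, with every YSGr library above every YSGnr library and every YSGnr library above every SG library. Gabra6 was 8.34-fold higher in YSGr than in SG (log2 fold change 3.06, SE 0.25, adjusted p = 0.000734, limma over all 15251 genes tested). It was 2.77-fold higher in YSGnr than in SG (1.47, SE 0.25, adjusted p = 0.0227) and 3.01-fold higher in YSGr than in YSGnr (1.59, SE 0.25, adjusted p = 0.0267).

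Gabrd encodes delta, which takes the place of a gamma subunit in receptors outside synapses. Its level was 5.24, 5.37 and 4.85 log2 CPM in YSGr, 4.30, 3.42 and 4.33 in YSGnr, and 1.86, 1.73 and 1.60 in SG. Again the groups did not overlap, and the step between YSGnr and SG was the wider of the pair of steps. Gabrd was 10.7-fold higher in YSGr than in SG (log2 fold change 3.42, SE 0.26, adjusted p = 0.000582) and 4.89-fold higher in YSGnr than in SG (2.29, SE 0.26, adjusted p = 0.00547). Between YSGr and YSGnr it was 2.19-fold higher in YSGr (1.13, SE 0.26, adjusted p = 0.0423). In the shallow library, YSGnr replicate 1, these levels rest on 95 reads of Gabra6 and 77 reads of Gabrd, as calculated back from the table.

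**Figure D1:**
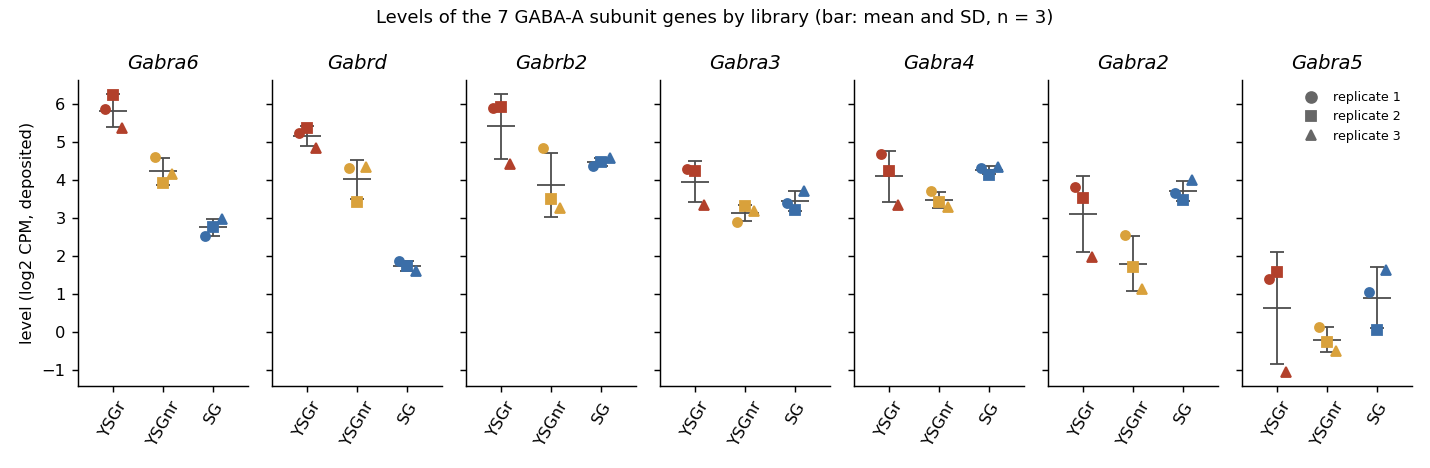
Level of the 7 subunit genes in log2 CPM in each of the 9 libraries; points are libraries, with a shape for each replicate number, and bars show the group mean and SD (n = 3) for YSGr, YSGnr and SG. Gabra6 and Gabrd separate all 3 groups, with means of 5.82 and 5.15 in YSGr, 4.23 and 4.02 in YSGnr, and 2.76 and 1.73 in SG, while the YSGr and SG libraries of Gabra2, Gabra3, Gabra4, Gabra5 and Gabrb2 overlap.

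Counted over the set, 2 of 7 genes rose and 0 fell in YSGr against SG, where 6.58% of all tested genes rose and 3.97% fell. In YSGnr against SG, 2 rose and 0 fell, where 1.19% of tested genes rose and 2.17% fell, and in YSGr against YSGnr 2 rose and 0 fell, where 5.09% rose and 0.879% fell. In each comparison the pair called was Gabra6 and Gabrd. Counted by libraries that do not overlap, 2 genes were higher and 0 lower in YSGr against SG (19.5% and 17.3% of all tested genes), 2 higher and 2 lower in YSGnr against SG (16.9% and 21.3%), and 3 higher and 0 lower in YSGr against YSGnr (15% and 7.46%). The median log2 fold change of the 7 genes was 0.51 in YSGr against SG, -0.60 in YSGnr against SG and 1.13 in YSGr against YSGnr, beside -0.02, -0.01 and 0.01 over all tested genes. The first pair of comparisons uses the same 3 SG libraries.

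The rise in YSGr against SG was called whichever library was left out, with log2 fold changes of 2.85 to 3.29 for Gabra6 and 3.31 to 3.58 for Gabrd. In YSGnr against SG, Gabrd was called without any 1 of the 9 libraries (adjusted p up to 0.0464). Gabra6 lost its call without SG replicate 1 (adjusted p = 0.136), SG replicate 2 (0.11), SG replicate 3 (0.0911) or YSGnr replicate 3 (0.0837), at log2 fold changes of 1.36 to 1.57 there. YSGr against YSGnr was less secure. Without SG replicate 1, 2 or 3 the adjusted p was 0.065, 0.063 and 0.0642 for Gabra6 and 0.0804, 0.0792 and 0.081 for Gabrd. Without YSGr replicate 1 or 2 it was 0.144 and 0.138 for Gabra6 and 0.187 and 0.185 for Gabrd, and without YSGnr replicate 2 or 3 it was 0.1 and 0.101 for Gabra6 and 0.107 and 0.108 for Gabrd. Both were called without YSGr replicate 3 (0.000777 and 0.00616) or YSGnr replicate 1 (0.0108 and 0.0216). YSGnr replicates 2 and 3 and the SG libraries are alike in the sex-linked genes, and without YSGnr replicate 1 Gabra6 was higher by 1.28 (adjusted p = 0.0161) and Gabrd by 2.15 (adjusted p = 0.00639) in YSGnr against SG. YSGr has no library of that kind, and its single like library in YSGnr, replicate 1, lay below all 3 YSGr libraries in both genes. That is 1 shallow library, and the part of the sex-linked difference in these rises was not tested.

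Gabrb2 encodes beta2, common in mature synaptic receptors. Its level was 5.89, 5.92 and 4.41 log2 CPM in YSGr, 4.83, 3.50 and 3.27 in YSGnr, and 4.37, 4.46 and 4.57 in SG. YSGr replicates 1 and 2 lay above every other library, and YSGr replicate 3 and YSGnr replicate 1 lay near or above the SG level. No difference was called: 0.94 log2 units in YSGr against SG (95% interval -0.12 to 2.00, adjusted p = 0.245), -0.60 in YSGnr against SG (-1.66 to 0.46, adjusted p = 0.429) and 1.54 in YSGr against YSGnr (0.48 to 2.60, adjusted p = 0.0726). Without YSGr replicate 3 the difference from SG was 1.44 (adjusted p = 0.0248) and that from YSGnr 2.04 (adjusted p = 0.00413), and without YSGnr replicate 1 YSGr exceeded YSGnr by 2.02 (adjusted p = 0.0193).

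Gabra3 encodes alpha3, an alpha subunit of younger neurons and of brainstem and cortical circuits. It was at 4.29, 4.23 and 3.34 log2 CPM in YSGr, 2.90, 3.32 and 3.18 in YSGnr, and 3.39, 3.22 and 3.72 in SG. The YSGr libraries were all above the YSGnr libraries, narrowly so for YSGr replicate 3, which lay among the SG libraries. The differences were 0.51 in YSGr against SG (95% interval -0.09 to 1.12, adjusted p = 0.268), -0.31 in YSGnr against SG (-0.92 to 0.30, adjusted p = 0.479) and 0.82 in YSGr against YSGnr (0.22 to 1.43, adjusted p = 0.0829). Without YSGr replicate 3 they were 0.82 in YSGr against SG (adjusted p = 0.015) and 1.13 in YSGr against YSGnr (adjusted p = 0.00276).

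Gabra4 encodes alpha4, the partner of delta in thalamus and dentate gyrus. Its level was 4.68, 4.25 and 3.35 log2 CPM in YSGr, 3.71, 3.43 and 3.29 in YSGnr, and 4.31, 4.14 and 4.34 in SG. All YSGnr libraries were below all SG libraries, and the YSGr libraries spread from the YSGnr range to above the SG range. The difference was -0.17 in YSGr against SG (95% interval -0.83 to 0.50, adjusted p = 0.784), -0.78 in YSGnr against SG (-1.45 to -0.11, adjusted p = 0.147) and 0.62 in YSGr against YSGnr (-0.05 to 1.28, adjusted p = 0.172). Without YSGr replicate 3 the first of these turned to 0.20 (adjusted p = 0.459), and the others were -0.78 (adjusted p = 0.02) and 0.99 (adjusted p = 0.00386).

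Gabra2 encodes alpha2, typical of receptors of immature neurons. Its level was 3.81, 3.53 and 1.97 log2 CPM in YSGr, 2.56, 1.70 and 1.14 in YSGnr, and 3.65, 3.48 and 3.998 in SG. Every YSGnr library was below every SG library, YSGr replicates 1 and 2 lay within the SG range, and YSGr replicate 3 lay within the YSGnr range. The difference was -1.91 in YSGnr against SG (95% interval -3.03 to -0.80, adjusted p = 0.0655), -0.61 in YSGr against SG (-1.72 to 0.51, adjusted p = 0.496) and 1.31 in YSGr against YSGnr (0.19 to 2.42, adjusted p = 0.109). The YSGnr difference from SG passed the threshold without YSGnr replicate 1 (-2.29, adjusted p = 0.0208) or YSGr replicate 3 (-1.91, adjusted p = 0.0112), and YSGr against YSGnr did so without the same libraries (1.69, adjusted p = 0.0393, and 1.87, adjusted p = 0.00483).

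Gabra5 encodes alpha5, best known from hippocampal receptors outside synapses, and was the lowest of the 7 genes. It was at 1.40, 1.58 and -1.05 log2 CPM in YSGr, 0.15, -0.26 and -0.49 in YSGnr, and 1.06, 0.04 and 1.63 in SG. These levels rest on 9 reads in YSGr replicate 3 and 4 reads in YSGnr replicate 1, and every pair of groups overlapped. Differences were -0.27 in YSGr against SG (95% interval -1.82 to 1.29, adjusted p = 0.856), -1.11 in YSGnr against SG (-2.67 to 0.44, adjusted p = 0.324) and 0.85 in YSGr against YSGnr (-0.71 to 2.40, adjusted p = 0.391), so differences of about 1 log2 unit were not detectable at this depth and spread. Without YSGr replicate 3, YSGr against SG turned to 0.58 (adjusted p = 0.399) and YSGr against YSGnr was 1.69 (adjusted p = 0.0192), and without SG replicate 3 the difference between YSGr and SG was 0.09 (adjusted p = 0.967).

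Leaving out a single library also changed how many of all tested genes were called. The closing section on processing gives the range of these counts, not the count for each library left out. Calls of single genes gained or lost by leaving out a library are to be read beside that range. Leaving out YSGr replicate 3 and YSGnr replicate 1 together changed the counts for the set. The members called were then 4 of 7 in YSGr against SG, Gabra3 and Gabrb2 being added, 6 of 7 in YSGnr against SG and 7 of 7 in YSGr against YSGnr. The share of all tested genes called was then 49.5%, 52.9% and 64.7% in these comparisons, beside 10.5%, 3.36% and 5.97% with all 9 libraries.

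**Figure D2:**
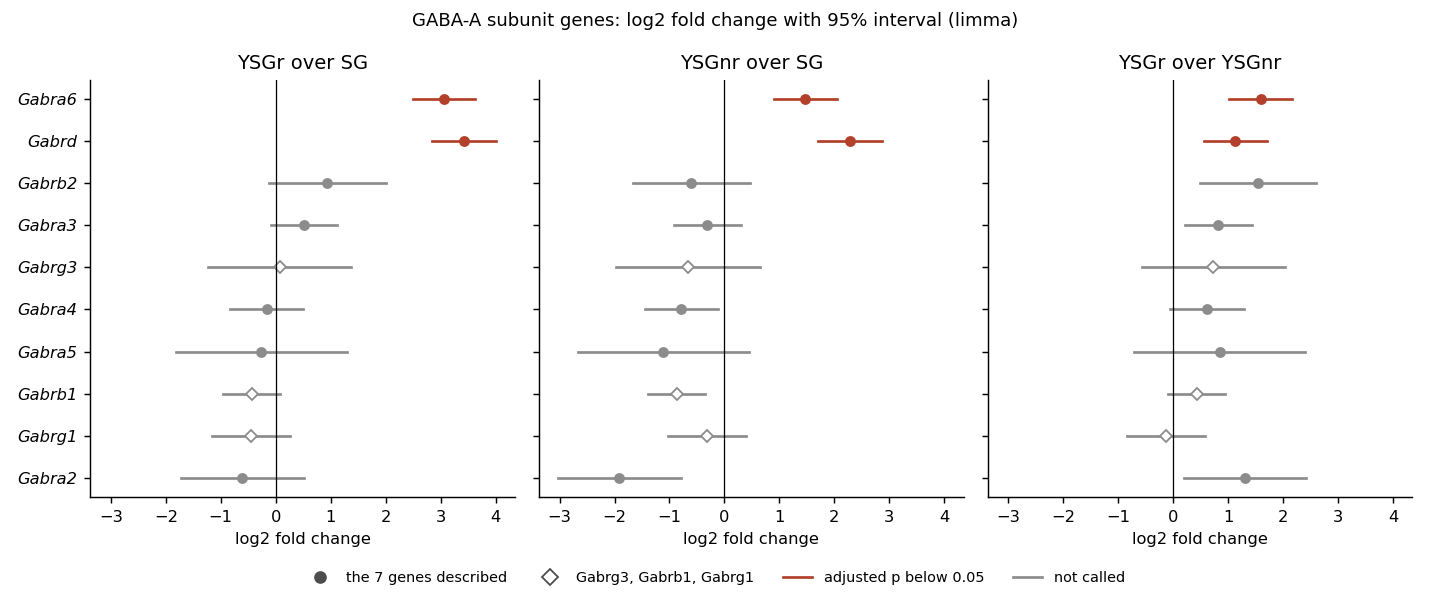
Log2 fold changes of 10 GABA-A subunit genes in YSGr over SG, YSGnr over SG and YSGr over YSGnr; filled points are the 7 genes described, open diamonds Gabrg3, Gabrb1 and Gabrg1, bars 95% intervals from limma, and red marks an adjusted p below 0.05. Gabra6 (3.06, 1.47 and 1.59) and Gabrd (3.42, 2.29 and 1.13) are called in all 3 comparisons, and Gabra2 in YSGnr against SG (-1.91) is the lowest value.

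Reads of the libraries also differed with transcript length. The Spearman correlation across 14603 genes between a library's difference from SG and transcript length was -0.406 in YSGr replicate 3, -0.523 in YSGnr replicate 2 and -0.504 in YSGnr replicate 3, and lay between -0.113 and 0.171 in the other 6. Gabra2 has the longest transcript of the 7, at 5852 bases, and Gabra6 the shortest, at 2467 bases. With a length and GC trend removed from each library, Gabra6 was higher by 3.21 log2 units in YSGr and by 1.52 in YSGnr, both against SG (adjusted p = 0.000612 and 0.0193), and Gabrd by 3.30 and 2.14 (adjusted p = 0.000612 and 0.00914). Gabra2 was then called lower in YSGnr against SG, at -1.52 (adjusted p = 0.044).

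Compared per kilobase of transcript, Gabra6 was the highest of the 7 genes in YSGr, at a mean of 4.51 log2 CPM per kilobase, above Gabrd at 3.72 and Gabrb2 at 3.41. Gabra3 and Gabra4 followed at 2.08 and 2.06, and Gabra2 and Gabra5 were lowest at 0.56 and -0.77. Gabrd and Gabrb2, Gabra3 and Gabra4, and Gabra2 and Gabra5 overlapped between libraries. In YSGnr the order was Gabra6 at 2.92, Gabrd at 2.58, Gabrb2 at 1.87, Gabra4 at 1.44 and Gabra3 at 1.26 log2 CPM per kilobase, each overlapping its neighbour, with Gabra2 at -0.75 and Gabra5 at -1.62 overlapping each other below them. In SG the order was another one: Gabrb2 at 2.47, Gabra4 at 2.22, Gabra3 at 1.57, Gabra6 at 1.45 and Gabra2 at 1.16, with Gabrd at 0.29 and Gabra5 at -0.51 lowest. In SG, Gabrb2 lay above Gabra4, Gabra4 above Gabra3, and Gabra2 above Gabrd in all libraries, whereas Gabra3, Gabra6 and Gabra2 overlapped in turn, as did Gabrd and Gabra5.

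As a share of the 5 alpha subunit genes described, summed as CPM per kilobase, Gabra6 made up 61.2%, 70.4% and 73.5% in YSGr, 59.99%, 49.8% and 57.1% in YSGnr, and 18.0%, 23.3% and 20.2% in SG. The Yap1-floxed libraries were all above the SG libraries, and YSGr and YSGnr nearly met. Gabra2 made up 4.55% ± 1.67 in YSGr and 4.45% ± 1.60 in YSGnr, against 16.8% ± 0.7 in SG (SD, n = 3 each). The means of Gabra4 were 12.6% in YSGr, 19.8% in YSGnr and 35.1% in SG, and those of Gabra3 were 12.6% in YSGr, 18.0% in YSGnr and 22.2% in SG. Gabra5 was the smallest, at 1.89% in YSGr and 2.16% in YSGnr, against 5.37% in SG. A share can move through any of the 5 genes. These are not all the alpha subunit genes measured, so the values are not shares of all alpha transcripts. With the length and GC trend removed, Gabra6 averaged 69.2% in YSGr, 54.5% in YSGnr and 20.8% in SG.

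**Figure D3:**
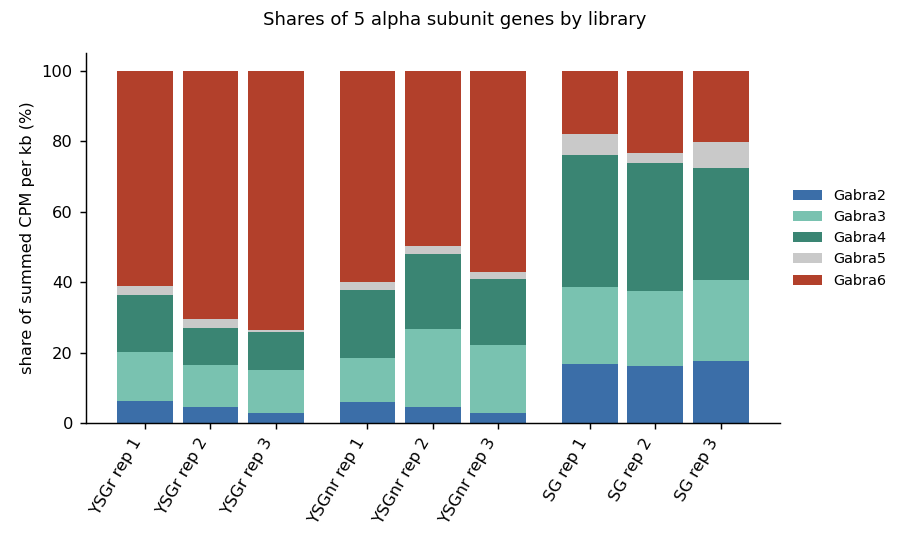
Stacked bars of the share of each of 5 alpha subunit genes, in percent of their summed CPM per kilobase, 1 bar per library in the order YSGr, YSGnr, SG. The red part is Gabra6, averaging 68.4% in YSGr and 55.6% in YSGnr, against 20.5% in SG.

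Of other subunit genes, Gabrb1, Gabrg1 and Gabrg3 gave no call, with log2 fold changes of -0.43, -0.45 and 0.07 in YSGr against SG (adjusted p = 0.273, 0.42 and 0.956), -0.87, -0.32 and -0.66 in YSGnr against SG (adjusted p = 0.0687, 0.539 and 0.482) and 0.43, -0.13 and 0.73 in YSGr against YSGnr (adjusted p = 0.206, 0.777 and 0.377). Gabrb1 was called in 1 of the 9 fits with a library left out in YSGnr against SG and in 1 in YSGr against YSGnr, both without YSGr replicate 3 (adjusted p = 0.0114 and 0.0124). Gabre, Gabrq and Gabrr1 stayed below the filter on low values. Overlap with genes on the other strand makes some values uncertain if strand was not kept, on which the sources used here are silent. Gabra4 shares 196 bases of its gene span with Gabrb1, Gabra3 shares 3088 bases with Gm14735, and much of the span of Gabra5 is also annotated on the other strand.

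Genes with profiles near those of each member were sought with other members and predicted genes (Gm and Rik symbols) left out. The nearest over the 9 libraries, by root mean square difference of centred log2 CPM, were different for each member except that Gabra6 and Gabrd shared Cbln3. For Gabra6 they were Cbln3 (0.22 log2 units), which encodes a cerebellin of granule neurons, Phyhip (0.22) and Il16 (0.25). For Gabrd they were Cbln3 (0.30), Fam107a (0.43) and Slc17a7 (0.45), the vesicular glutamate transporter of granule neurons. The profiles of Gabra6 and Gabrd were 0.41 apart, so Gabra6 itself lay nearer to Gabrd than Fam107a or Slc17a7 did. Those of Gabra2 and Gabrd were 2.02 apart. For Gabrb2 the nearest were Nrg3 (0.10) and Cacna1e (0.13) among the 3, for Gabra3 Sh3bp5 (0.08), Man1a (0.11) and Lactb (0.12), and for Gabra4 Tnks (0.11), Sema6d (0.12) and Akap11 (0.12). For Gabra2 they were Tenm3 (0.18), Galntl6 (0.22) and Dbpht2 (0.23), and for Gabra5 Zfp804a (0.32), Chrm2 (0.37) and Dcdc2a (0.38).

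Genes that anchor the receptor, supply GABA or set the chloride gradient were counted by list. Of 17 tested genes of receptor clustering and trafficking, 0 were called by limma in YSGr or in YSGnr against SG, and 2 rose in YSGr against YSGnr. Against SG, 5 in YSGr and 7 in YSGnr had an unadjusted p below 0.05, beside 3987 and 3909 of all 15251 tested genes. Of 8 genes of GABA synthesis, transport and breakdown, 2 rose and 1 fell in YSGr against SG: Slc32a1, the vesicular GABA transporter (1.18, adjusted p = 0.0166), Slc6a13 (1.10, adjusted p = 0.0414), a plasma membrane GABA transporter, and Slc6a11 (-1.61, adjusted p = 0.00387), the glial GABA transporter. The fall of Slc6a11 was called without any 1 library (adjusted p up to 0.0288), and each of the other pair was called in 4 of 9 such fits. In YSGnr against SG 0 genes of that list rose and 1 fell, and in YSGr against YSGnr 4 rose and 1 fell. Of 4 tested GABA-B receptor genes, Kctd8, an auxiliary subunit, rose in YSGr against SG (1.43, adjusted p = 0.0181, called in 4 of 9 fits with a library left out). Of 11 genes of chloride transport, Slc12a5, the extruder KCC2 that makes GABA inhibitory in mature neurons, rose in YSGr against SG by 1.44 (adjusted p = 0.02) and against YSGnr by 1.85 (adjusted p = 0.0267), with -0.41 in YSGnr against SG (adjusted p = 0.402). The first of these calls was kept in 4 and the second in 2 of 9 fits with a library left out.

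Markers of cell types moved in the same libraries. Of 16 markers of mature granule neurons, which hold no GABA-A subunit, 10 rose and 0 fell in YSGr against SG (median log2 fold change 1.29), 4 rose and 0 fell in YSGnr against SG (0.26), and 11 rose and 0 fell in YSGr against YSGnr (1.25). Cbln3 rose by 3.32 (adjusted p = 9.19e-05), Slc17a7 by 2.94 (0.00204), Chn2 by 2.22 (0.00335) and Grin2c, an NMDA receptor subunit of granule neurons, by 2.09 (0.00129) in YSGr against SG. Their summed level was 1805 to 3283 CPM in YSGr, 1057 to 1470 in YSGnr and 941 to 1185 in SG. The median of the list in log2 CPM was 6.43 to 7.25 in YSGr, 5.56 to 5.98 in YSGnr and 5.37 to 5.75 in SG. In YSGnr against SG, Cbln3 rose by 1.69 (adjusted p = 0.00438), Slc17a7 by 1.45 (0.0482) and Grin2c by 1.03 (0.0356), beside 1.47 for Gabra6 and 2.29 for Gabrd. The call of Cbln3 there held without any 1 library, and those of Slc17a7 and Grin2c were each kept in 3 of 9 fits with a library left out. Of the 16 markers, 7 lay higher and 1 lower in all YSGnr libraries than in all SG libraries, beside 16.9% and 21.3% of all tested genes. Counts with a library left out are to be read beside those of all tested genes, which also moved and are given only as a range (closing section on processing). The count of 10 was 6 without SG replicate 1 or 2 or YSGr replicate 1 or 2, and 16 without YSGr replicate 3. The count of 4 was 1 without any 1 of the SG libraries, YSGr replicate 1 or 2 or YSGnr replicate 3. The count of 11 was 1 without any 1 of the SG libraries and 0 without YSGr replicate 1 or 2 or YSGnr replicate 2 or 3.

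Progenitor and division markers stood the other way in YSGr. Of 14 progenitor and Hedgehog genes, 0 rose and 3 fell in YSGr against SG, among them Hhip (-2.37, adjusted p = 0.0136), and of 16 proliferation genes 0 rose and 5 fell, among them Mki67 (-1.02, adjusted p = 0.0141). Summed proliferation markers were at 1303 to 2804 CPM in YSGr, 3068 to 3565 in YSGnr and 3218 to 3233 in SG. Calls among all tested genes also moved when a library was left out. Without YSGr replicate 3 the falls numbered 10 and 16. Without any 1 of the SG libraries or YSGr replicate 2 they numbered 0 and 1, without YSGr replicate 1 they numbered 0 and 2, and without YSGnr replicate 2 or 3 the progenitor count was 2. In bulk samples, a change in the number of cells of a type and a change in RNA per cell cannot be told apart.

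Markers of other cell types also differed. The lists share a few genes, as the granule neuron and unipolar brush cell lists do. A call such as that of Slc32a1, also among the interneuron markers, is therefore counted more than once. Of 12 Purkinje cell markers, 4 rose and 1 fell in YSGr against SG and 9 rose in YSGr against YSGnr, with summed levels of 1581 to 2769 CPM in YSGr, 666 to 1223 in YSGnr and 1038 to 1150 in SG. Of 11 tested markers of inhibitory interneurons, 2 rose in YSGr against SG and 6 in YSGr against YSGnr, with summed levels of 389 to 608 CPM in YSGr, 200 to 274 in YSGnr and 285 to 292 in SG. The unipolar brush cell list had 3 of 7 risen in YSGr against SG and the astrocyte list 3 of 12. Of 12 oligodendrocyte markers, 8 rose and 2 fell in YSGr against SG, with summed levels of 2702 to 4105 CPM in YSGr, 1346 to 2450 in YSGnr and 1077 to 1683 in SG. In YSGnr against SG, 5 of 12 endothelial and mural markers fell. Of 10 microglia markers 0 were called by limma in YSGr or YSGnr against SG or in YSGr against YSGnr. At an unadjusted p below 0.05 there were 1, 1 and 2, beside 3987, 3909 and 5170 of all 15251 tested genes. Of 7 choroid plexus and 6 erythrocyte markers 1 and 3 fell in YSGr against SG. With a library left out, the number of all tested genes called also changed, and its range is given in the closing section on processing. Without YSGr replicate 3, YSGr against SG had 10 Purkinje, 8 interneuron and 6 unipolar brush cell markers risen. Without SG replicate 1, 2 or 3 or YSGr replicate 1 or 2, the risen interneuron and unipolar brush cell counts there were 0. Without SG replicate 1 or 2 or YSGr replicate 2, the risen oligodendrocyte markers numbered 2, and without YSGr replicate 1 they numbered 4. The risen astrocyte markers numbered 1 without any 1 of the SG libraries or YSGr replicate 2, 2 without YSGr replicate 1, and 5 without YSGnr replicate 1. The fallen choroid plexus markers numbered 0 without any 1 of the SG libraries, YSGr replicate 1 or YSGnr replicate 2, and 2 without YSGr replicate 3. The fallen erythrocyte markers numbered 0 without SG replicate 1 or 3 or YSGr replicate 1 or 2, 1 without SG replicate 2, and 2 without YSGnr replicate 2 or 3. The fallen endothelial and mural markers numbered 0 without any 1 of the SG libraries or YSGnr replicate 3. The part of these cell types in the differences of the subunit genes was not tested. No marker of these lists was at the table's floor in any library, except 1 choroid plexus marker in YSGnr replicate 1. In YSGr against YSGnr the lists had between 0 and 1 call each without any 1 library other than YSGr replicate 3 or YSGnr replicate 1.

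**Figure D4:**
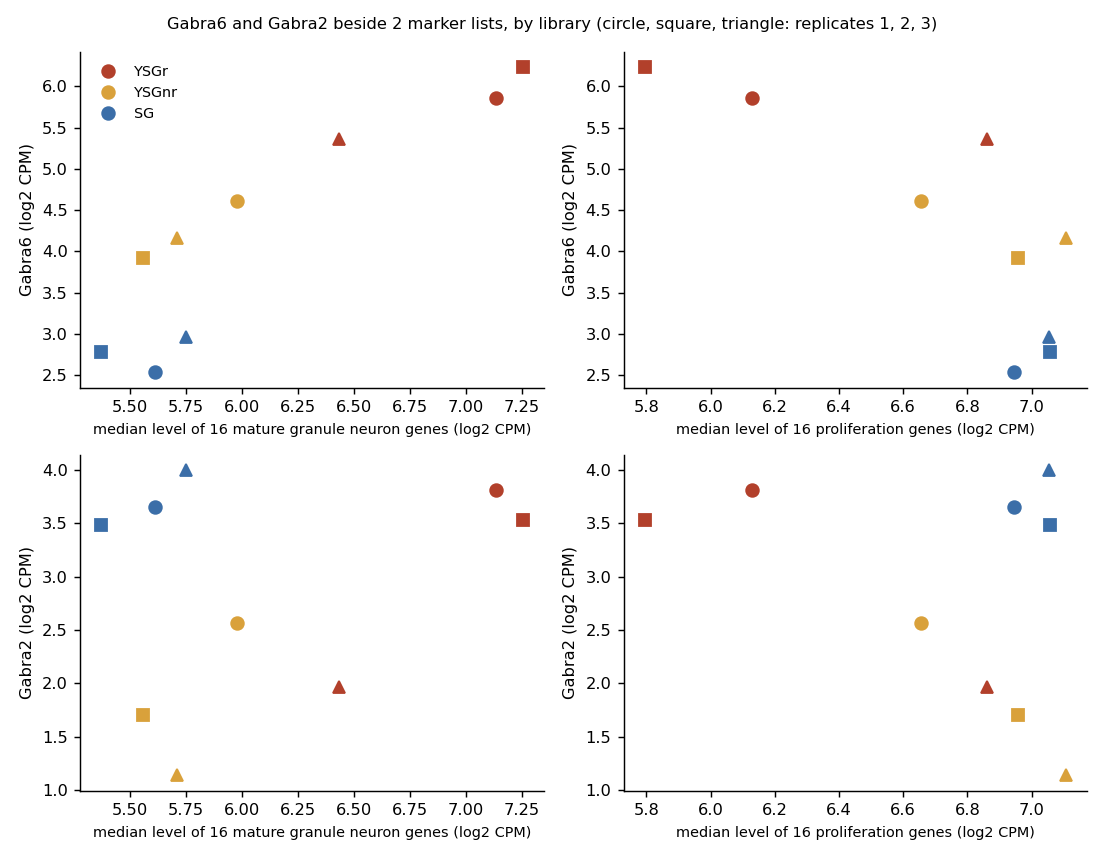
Level of Gabra6 (top) and Gabra2 (bottom) in log2 CPM against the median log2 CPM of 16 mature granule neuron genes (left) and of 16 proliferation genes (right); each point is a library, coloured by group and shaped by replicate number. The granule neuron median is 6.43 to 7.25 in YSGr, 5.56 to 5.98 in YSGnr and 5.37 to 5.75 in SG.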

How the data were processed

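RNA of 9 libraries was measured by bulk sequencing. Extraction used a Trizol-type reagent and BGI sequenced the libraries on DNBseq, per the labels' protocols. The submitters' processing notes name Trimmomatic, RSEM, Bowtie2, Picard, edgeR and the build mm10, without versions. The authors deposited 1 table of log2 CPM for 17482 genes, with a library scaling and a small added count already in it, so fold changes of low genes are understated. Between 44.6% and 68.9% of the values correspond to whole reads to within 0.02 reads, so no count test was run.

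Groups were compared with limma 3.58.1 in R 4.3.3 on these values, in 1 model of the 3 group means with the trend option and two-sided tests. The 15251 genes above 0 log2 CPM in 3 or more libraries were tested, and a call needed an adjusted p (Benjamini-Hochberg) below 0.05. The steps were tested on simulated data. Transcript lengths and coordinates are from GENCODE M21 on GRCm38, with 95.6% of symbols matched to 1 gene, and promoters from RefSeq, where 6 of 7 members matched. Named genes are the members, other subunits and up to 4 called genes of each list with the smallest adjusted p in YSGr against SG. They also include the 3 genes nearest to each member, with other members and predicted genes left out. Yap1, Gli1, Zic1, Yam1, Lars2 and the sex-linked genes were chosen after their values were seen. Members and lists were chosen with earlier results of these data known. Some genes that this rule names are not reported here. No libraries were merged, since replicates differed beyond sampling noise.

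Alternatives were other filters, 1 CPM added, median and quantile scaling, fits of the compared 6 libraries only, fits without the trend or with robust empirical Bayes or array weights, a replicate block, a length and GC trend removed, and libraries left out. Trend removal combined with left-out libraries was added after seeing the data.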

Additional observations from a re-analysis of the deposited data

How the results depend on the processing

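Gabra6 and Gabrd kept their direction under every alternative run, and both were called in YSGr against SG under all of them. The counts moved. In YSGr against SG, genes called (1608) became 9661 with array weights, 7556 without YSGr replicate 3 and YSGnr replicate 1, 7555 without these and with the trend removed, 2728 without YSGnr replicate 1 and with the trend removed, and 328 to 4257 with 1 library left out, and members called (2) became 5, 4 and 4 under the first 3 and 2 to 4 with 1 left out. In YSGnr against SG, genes called (512) became 1190 with the 6 libraries alone, 7316 with array weights, 774 with the trend removed, 8074 without both libraries, 6086 without both and with the trend removed, 1996 without YSGnr replicate 1 and with the trend removed, and 19 to 3332 with 1 left out, and members called became 4 with the 6 libraries alone, 6 with array weights, 6 without both and 6 with the trend removed as well, 3 with the trend removed with or without YSGnr replicate 1, and 1 to 4 with 1 left out. In YSGr against YSGnr, genes called (910) became 316 with median scaling, 0 with the 6 libraries alone, 568 without the mean-variance trend, 9967 with array weights, 1690 with the trend removed and 1617 with the block added to it, 9867 without both libraries, 8898 without both and with the trend removed, 4036 without YSGnr replicate 1 and with the trend removed, and 1 to 6528 with 1 left out, and members called became 1, 0, 1, 7, 7 and 7 under median scaling, the 6 libraries alone, no trend, array weights, without both, and without both with the trend removed, 4 without YSGnr replicate 1 with the trend removed, 3 with the trend removed and the block, and 0 to 7 with 1 left out. The 0 with the 6 libraries alone, by limma, stood beside 3368 genes and 4 members at an unadjusted p below 0.05. The cause was not tested.

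In YSGr against SG the differences of Gabra4 and Gabra5, not called, turned to 0.30 and 0.19 with array weights, to 0.20 and 0.58 without YSGr replicate 3 or without both libraries, to 0.28 and 0.69 without both and with the trend removed, and that of Gabra5 to 0.09 without SG replicate 3; with 1 library left out they ranged from -0.46 to 0.20 for Gabra4 and from -0.74 to 0.58 for Gabra5. Replicate numbers are shared by the groups. Deviations of same-numbered libraries correlated between -0.226 and 0.236, and those of differently numbered libraries between -0.251 and 0.232. With 3 libraries in each group, these values cannot decide whether the numbers pair libraries. With the replicate number as a block, 1194, 341 and 860 genes were called in the 3 comparisons in the order above. The members called were then 2, 2 and 2. YSGnr replicate 1 is shallow, so its low genes such as Gabra5 are least precise.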
